A study of Mus musculus with 5 samples.

Results

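The 30 genes described here encode the enzymes and regulators with which a cell makes cholesterol (the sterol branch, 21 genes) and fatty acids (the fatty acid branch, 9 genes). They were chosen by name from the pathways driven by the SREBP transcription factors. The rule used no measured value, but the choice was made with earlier results of these data known. All 30 were found among the 11564 genes of the deposited table, and all 30 passed the filter on low values. The material was RNA of sorted CD8 T cells from mice, lymphocytes whose task is to kill infected or malignant cells, read by paired-end sequencing. The 3 libraries labelled PHD2-deltaT, also described in the labels as a PHD2 knockout, were compared with 2 libraries labelled WT. Mouse age, strain, tissue of origin and the Cre line behind the deletion are not stated by the labels. The labels give the same cell type for all 5 libraries and no other difference than the genotype.

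Egln1 encodes PHD2, an enzyme that uses oxygen to mark the hypoxia-inducible factors (HIF) for degradation. SREBP2, encoded by Srebf2, mainly drives cholesterol genes, and SREBP1, encoded by Srebf1, mainly drives fatty acid genes. Both are held in the endoplasmic reticulum by INSIG proteins while sterols are plentiful and are cut free when sterols run low. T cells raise both branches when they are activated and need membrane for growth. Hypoxia is known in other cells to shift lipid handling from synthesis toward storage in droplets.

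Normalized counts summed to between 19593220 and 20253007 in the libraries labelled PHD2-deltaT and between 19798246 and 20119227 in those labelled WT, and the reads inferred behind all 5 numbered from 10821714 to 15386958. Egln1 read 5447, 4327 and 4993 normalized counts in the libraries labelled PHD2-deltaT, against 1927 and 2182 in those labelled WT, so the targeted gene was higher where a knockout is labelled. Counts over a whole gene cannot separate deleted exons from kept ones, and directions below follow the label PHD2-deltaT as deposited. The 10 CD8 T cell markers examined were all measured, with summed levels of 111448 to 113556 in PHD2-deltaT and 107510 to 115390 in WT. Other lineages were read in the same way. Cd4 of the CD4 T list, Ms4a1, Cd79a and Pax5 of the B cell list, 3 of 5 natural killer genes, 5 of 8 myeloid genes and all 6 erythroid and platelet genes were not analysed here. The measured rest summed to 1035 to 1067 against 857 to 917 (4 CD4 T genes), 5671 to 6399 against 5995 to 6514 (4 B cell genes), 79.9 to 123 against 50.5 to 71.5 (2 natural killer genes) and 184 to 199 against 149 to 174 (3 myeloid genes), PHD2-deltaT against WT. Sums can hide single genes: by limma-trend 2 of the 10 CD8 T cell, 1 of the 4 B cell and 1 of the 3 myeloid markers passed an adjusted p of 0.05, all higher in PHD2-deltaT, where 2.97% of all tested genes did. Lying wholly above WT were 2 CD8 T cell, 3 CD4 T, 3 B cell, 2 natural killer and 1 myeloid markers (16.0% of all genes), and wholly below it 4 CD8 T cell markers (14.5%). Their part in the results below was not tested. In bulk RNA, fewer cells of a type and less RNA per cell cannot be told apart. Since nothing in the labels ties the libraries to separate animals, the spread among the 5 libraries may be technical. A p-value here reflects that spread after limma drew it toward the spread of genes at similar levels. The fit had 12.8 prior against 3 residual degrees of freedom, so much of it was borrowed from other genes.

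The upstream sequence of Hmgcs1, the enzyme that commits acetyl units to the mevalonate route, is shown because it alone among the 24 members with a promoter window carried the sterol regulatory element searched for, and the stretches shown hold no annotated exon. Sequences are from RefSeq windows on GRCm38.p6, given 5′ to 3′ on the gene's own strand. The capitals in the first mark TCACCCCAC, a match to the motif TCACNCCAC that starts 137 bases before the transcription start, at chr13:119690154-119690282 on the plus strand. In the other 3 they mark the NF-Y box, CCAAT or its reverse complement ATTGG, read by a factor known to work beside the SREBPs. A stretch around the box nearest the start is shown for the 3 of 7 members with an unadjusted p under 0.05 that had a box outside annotated exons: the windows of Elovl6 and Acaca, which had the lowest p, held no NF-Y box, those of Msmo1 and Cyp51 held only boxes that touched annotated exons, and a second window of Pmvk held none. The stretches printed lie at chr13:119690276-119690340 (Hmgcs1, plus strand), chr11:120824572-120824636 (Fasn, minus strand) and chr3:89454375-89454439 (Pmvk, plus strand).
Hmgcs1, sterol element: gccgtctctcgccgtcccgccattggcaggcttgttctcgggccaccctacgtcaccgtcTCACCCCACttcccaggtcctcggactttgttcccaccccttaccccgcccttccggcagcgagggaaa
Hmgcs1, NF-Y box: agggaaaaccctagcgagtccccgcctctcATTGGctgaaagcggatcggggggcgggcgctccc
Fasn, NF-Y box: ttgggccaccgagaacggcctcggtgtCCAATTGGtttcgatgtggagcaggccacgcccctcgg
Pmvk, NF-Y box: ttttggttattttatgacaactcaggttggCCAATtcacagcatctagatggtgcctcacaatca

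RefSeq promoter windows of 300 bases, from 250 before to 50 after a start, were found for 24 of the 30 members (Fdps, Fdft1, Sqle, Stard4, Scd2 and Fads1 were not matched). Both strands were searched. An NF-Y box stood in a window of 20 of the 24 members, against 41.1% of the 27025 genes with a window. The strict sterol element was found in 1 of 24, against 1.44% of all genes. An E-box, CACGTG, was present in 5 of 24 (Hsd17b7, Dhcr7, Sc5d, Insig1 and Elovl5), against 8.09%. The letters ACGTG, the core read by HIF, are contained in every E-box and were present in those 5 and in Elovl6, 6 of 24 against 21.8%. These are matches of letters and not measured binding.

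Of the 30 members, 0 passed an adjusted p of 0.05 in the limma-trend fit over 11534 genes, where 461 genes or 4.0% passed (2.97% higher and 1.02% lower in PHD2-deltaT). The largest estimates were in the fatty acid branch and all lay below 0: Elovl6 at -0.41, Fasn at -0.29 and Acaca at -0.28 on the log2 scale. At an unadjusted p of 0.05, 4 of 21 sterol and 3 of 9 fatty acid members lay below WT and 0 above it, against 6.48% of all tested genes below and 8.53% above. Estimates below 0 were found for 20 of 21 sterol and 7 of 9 fatty acid members, against 51.8% of all genes. The median log2 fold change was -0.09 in the sterol branch and -0.11 in the fatty acid branch, beside -0.01 over all genes. The members share regulators and libraries, so these signs are not independent of each other. Without PHD2-deltaT replicate 1 the sterol median was -0.06, and leaving out 1 library at a time gave 16 to 19 sterol members and 6 or 7 fatty acid members below 0.

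**Figure D1:**
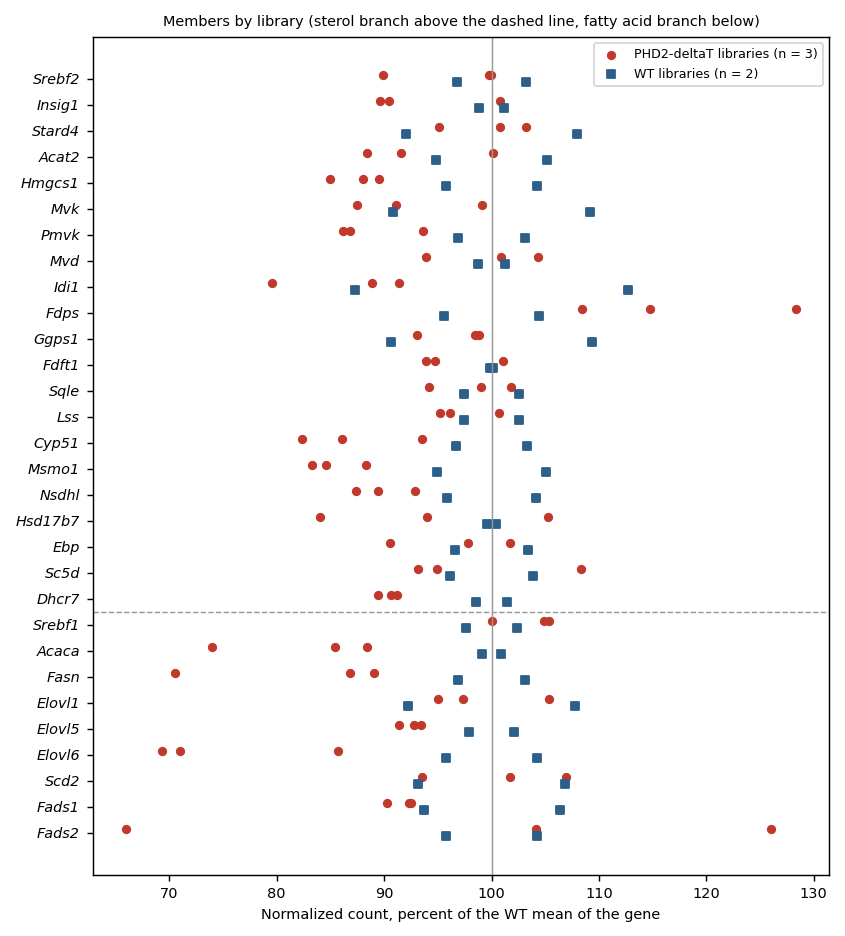
Normalized count of each member in each library, as a percent of that gene's mean in the 2 WT libraries (x axis), with the 3 PHD2-deltaT libraries as circles and the 2 WT libraries as squares. For 11 of the 30 members every circle lies left of both squares, and for Fdps every circle lies right of both.

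The PHD2-deltaT values lay wholly below the WT values for 6 sterol members (Hmgcs1, Pmvk, Cyp51, Msmo1, Nsdhl and Dhcr7) and 5 fatty acid members (Fasn, Acaca, Elovl5, Elovl6 and Fads1). Over all tested genes 14.5% were separated in that direction. Fdps was the 1 member separated upward, where 16.0% of all genes were. The other 18 members overlapped. Leaving out 1 library moved the estimate by over 1.5 times or turned its sign for 21 of the 30 members, namely the 18 that overlapped and Fasn, Nsdhl and Fads1. The 95% interval of the fold change stayed inside 1.5-fold either way for 29 of the 30 members, with Elovl6 the exception, and for 75.1% of all tested genes.

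Acaca and Fasn build the fatty acid chain. Acaca encodes acetyl-CoA carboxylase, which makes malonyl-CoA, and read 3574, 4128 and 4273 normalized counts in PHD2-deltaT, against 4790 and 4872 in WT (means 3991 ± 369, SD, n = 3, and 4831 ± 57.8, SD, n = 2). Every PHD2-deltaT value was under both WT values, and replicate 1 was the lowest. Its log2 fold change was -0.28 ± 0.08 (SE, adjusted p = 0.0653 by limma-trend). The authors' deposited table gives Acaca a log2 fold change of 0.25, there WT over PHD2-deltaT, and an FDR of 0.0463, the 1 of 30 members under 0.05 in that table, where 3.95% of all genes with an FDR were. Without PHD2-deltaT replicate 3 the gene passed in limma-trend (adjusted p = 0.0334), and over all alternatives its adjusted p ran from 0.0334 to 0.345. A processed pseudogene matches 6069 bases of its transcript at 99.2% identity, so reads of the pair may be shared out uncertainly.

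Fasn, fatty acid synthase, turns malonyl-CoA into palmitate. It read 16547, 20886 and 20379 normalized counts in PHD2-deltaT, against 24187 and 22736 in WT (means 19271 ± 2372, SD, n = 3, and 23461 ± 1026, SD, n = 2). Replicate 1 of PHD2-deltaT again stood lowest, and the groups did not overlap. The log2 fold change was -0.29 ± 0.09 (SE, adjusted p = 0.110 by limma-trend). It passed without PHD2-deltaT replicate 2 (adjusted p = 0.0404), with a range of 0.0404 to 0.433 over the alternatives. Without PHD2-deltaT replicate 1 the log2 fold change was -0.18 (adjusted p = 0.346 by limma-trend). Fasn alone made up 40.7%, 45.8% and 45.9% of the fatty acid branch's summed normalized counts in PHD2-deltaT, against 49.1% and 47.0% in WT.

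The elongases lengthen fatty acids beyond palmitate. Elovl6, which takes palmitate to stearate, read 344, 353 and 425 normalized counts in PHD2-deltaT, against 517 and 476 in WT (means 374 ± 44.7, SD, n = 3, and 497 ± 29.6, SD, n = 2). Its highest PHD2-deltaT value remained under the lowest WT value. The log2 fold change was -0.41 with a standard error of 0.12, and the 95% interval ran from 0.634-fold to 0.890-fold (limma-trend, adjusted p = 0.0593). Leaving out PHD2-deltaT replicate 3 (adjusted p = 0.0157) or using robust eBayes (adjusted p = 0.0470) carried it past the threshold, with a range of 0.0157 to 0.321 over the alternatives. A processed pseudogene matches 784 bases of it at 97.4% identity. Elovl5, the elongase of polyunsaturated chains, read 3046, 3113 and 3093 in PHD2-deltaT, against 3264 and 3402 in WT, a smaller step (log2 fold change -0.11, adjusted p = 0.504 in limma-trend). Elovl1, which extends very long chains, read 3229, 3578 and 3308 in PHD2-deltaT, against 3661 and 3134 in WT, and its groups overlapped.

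**Figure D2:**
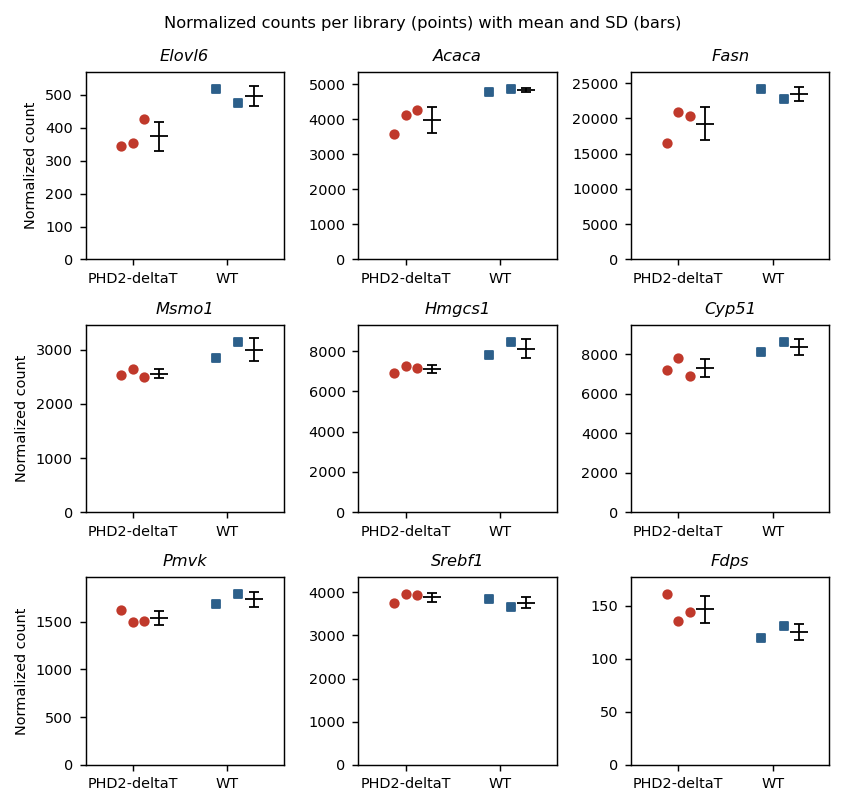
Normalized counts (y axes from 0) of 9 members in the 3 PHD2-deltaT libraries (circles) and the 2 WT libraries (squares), with the mean and SD of each group as bars. Elovl6, Acaca, Fasn, Msmo1, Hmgcs1, Cyp51 and Pmvk are the 7 members with an unadjusted p under 0.05, and their groups do not overlap. Srebf1 overlaps, and Fdps lies higher in PHD2-deltaT.

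The desaturases and the branch's own regulator were read beside them. Scd2, a stearoyl-CoA desaturase that introduces the double bond of oleate, read 9211, 8758 and 8056 normalized counts in PHD2-deltaT, against 8024 and 9198 in WT (log2 fold change 0.01, 95% interval 0.896-fold to 1.13-fold). Fads1 and Fads2 encode the delta-5 and delta-6 desaturases of polyunsaturated fatty acids. Fads1 read 800.0, 802 and 782 in PHD2-deltaT, against 921 and 811 in WT, every PHD2-deltaT value under both WT values. Its log2 fold change of -0.12 was -0.03 without WT replicate 1 and -0.21 without WT replicate 2. Fads2 was among the scarcest members, at 104, 65.9 and 126 in PHD2-deltaT, against 95.6 and 104 in WT, and as few as 48.3 inferred reads stood behind a value. Its PHD2-deltaT libraries spread more widely (SD 30.3) than its WT libraries (SD 5.94), and the 95% interval ran from 0.678-fold to 1.34-fold. The values of these libraries do not tell the fold changes inside that interval apart, and the parts of depth and of library spread in its width were not tested. Srebf1 read 3759.9, 3957 and 3941 in PHD2-deltaT, against 3846 and 3669 in WT, a log2 fold change of 0.05 with a 95% interval of 0.935-fold to 1.14-fold.

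In the sterol branch the first steps make mevalonate and its isoprenoid products. Hmgcs1, HMG-CoA synthase, whose upstream sequence is printed above, read 6901, 7274 and 7152 normalized counts in PHD2-deltaT, against 7781 and 8468 in WT (means 7109 ± 190, SD, n = 3, and 8124 ± 486, SD, n = 2). Its groups did not overlap, and the log2 fold change was -0.19 ± 0.07 (SE, adjusted p = 0.172 by limma-trend). An antisense gene shares 12.1% of its exon bases. Pmvk, phosphomevalonate kinase, read 1625, 1495 and 1507 in PHD2-deltaT, against 1681 and 1788 in WT (log2 fold change -0.17, adjusted p = 0.303 in limma-trend). Idi1, which isomerises the activated isoprene unit, had the most divergent WT pair, at 1279.5 and 1652, beside 1166, 1339 and 1303 in PHD2-deltaT. Its log2 fold change of -0.20 was -0.01 without WT replicate 2. Mvk, mevalonate kinase, and Mvd, which decarboxylates the product of Pmvk, had log2 fold changes of -0.11 and -0.01, and Acat2, the cytosolic acetoacetyl-CoA thiolase, of -0.10. All 3 overlapped between groups, and Acat2 was at -0.02 without WT replicate 2 and at -0.17 without WT replicate 1. A transcript of Acat3 matches 1443 bases of Acat2 at 97.7% identity.

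Fdps, farnesyl diphosphate synthase, was the 1 sterol member above WT, at 161, 136 and 144 normalized counts in PHD2-deltaT, against 119.8 and 131 in WT. Its log2 fold change was 0.22 ± 0.16 (SE, adjusted p = 0.585 by limma-trend). Per kilobase of exon its mean level over the 5 libraries was 32.8 normalized counts, beside 385 for Idi1 and 649 for Fdft1, the steps just before and after it. Transcripts of 5 processed pseudogenes match Fdps at 91.1% to 98.9% identity, and a predicted gene shares 26.7% of its exon bases, so its count is uncertain. Ggps1, which makes the geranylgeranyl group for protein prenylation, read 540.2, 538 and 508 in PHD2-deltaT, against 495 and 597 in WT, with overlap. A processed pseudogene matches 878 bases of Ggps1 at 97.2% identity.

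Squalene synthesis and ring closure had a median log2 fold change of -0.04 over 3 members, all of which overlapped between groups. Fdft1, squalene synthase, had a log2 fold change of -0.05, Sqle, the oxygen-using squalene epoxidase, of -0.02, and Lss, which closes the sterol ring, of -0.04. Sqle read 3599, 3701 and 3422 normalized counts in PHD2-deltaT, against 3541 and 3726 in WT, fully interleaved, with a 95% interval of 0.887-fold to 1.09-fold. The intervals of Fdft1 and Lss were 0.870-fold to 1.07-fold and 0.878-fold to 1.08-fold.

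The steps from lanosterol to cholesterol had a median log2 fold change of -0.14 over 7 members, and 4 of the 7 lay wholly below WT, against 14.5% of all tested genes. Cyp51, the lanosterol demethylase, read 7192, 7821 and 6886 normalized counts in PHD2-deltaT, against 8084 and 8633 in WT. Msmo1, a later enzyme, an iron-containing oxidase of the sterol methyl groups, read 2537, 2649 and 2498 in PHD2-deltaT, against 2849 and 3152 in WT. Both genes were below WT in every PHD2-deltaT library. Their log2 fold changes were -0.20 and -0.23, each ± 0.07 (SE), at adjusted p of 0.189 for Cyp51 and 0.111 for Msmo1 by limma-trend. Nsdhl, which acts in the same demethylation, read 1035, 1075 and 1012 in PHD2-deltaT, against 1110 and 1206 in WT. Dhcr7, which catalyses a final reduction to cholesterol, read 1141, 1157 and 1164 in PHD2-deltaT, against 1295 and 1258 in WT, with log2 fold changes of -0.15 for Nsdhl (-0.09 without WT replicate 2) and -0.14 for Dhcr7. Both genes stood below WT in every PHD2-deltaT library, and the 3 PHD2-deltaT values of Dhcr7 lay close together (SD 11.9). Hsd17b7, Ebp and Sc5d, the ketone reductase, the isomerase and the desaturase between these steps, overlapped between groups at -0.09, -0.05 and -0.02.

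**Figure D3:**
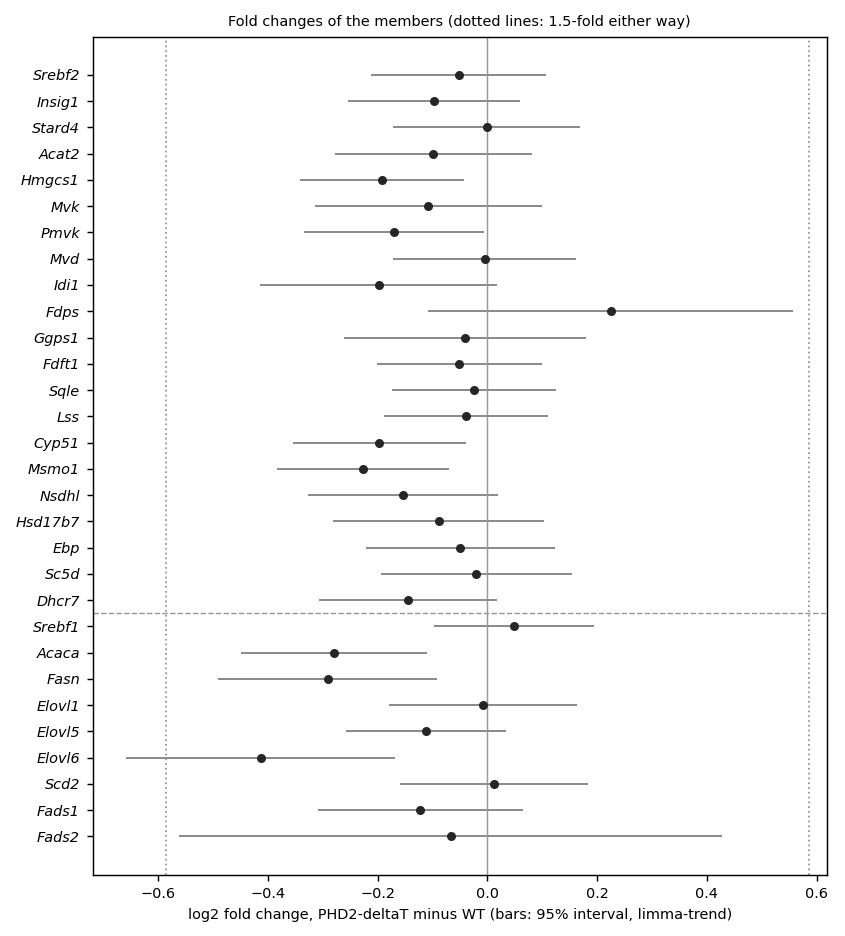
Log2 fold change of each member, PHD2-deltaT minus WT (x axis), with the 95% interval from limma-trend as bars, in the order of the pathway from top to bottom. Estimates lie below 0 for 27 of the 30 members, Elovl6 lies lowest at -0.41, and only the interval of Elovl6 crosses a dotted line at 1.5-fold.

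The regulators of the sterol branch overlapped between groups. Srebf2 read 11053, 12271 and 12288 normalized counts in PHD2-deltaT, against 12687 and 11908 in WT (log2 fold change -0.05). Insig1, the sterol-sensitive anchor and itself an SREBP target, read 3102, 3456 and 3073 in PHD2-deltaT, against 3389.5 and 3468 in WT (-0.10). Stard4, a cytosolic sterol carrier, had a log2 fold change of -0.00 with a 95% interval of 0.888-fold to 1.12-fold. Per kilobase of exon and averaged over the 5 libraries, Fasn (1913 normalized counts), Cyp51 (1749), Srebf2 (1676), Hmgcs1 (1636) and Scd2 (1583) had the highest levels of the 30 members, and Fads2 (30.1), Fdps (32.8) and Elovl6 (65.8) the lowest.

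Summed over the fatty acid branch, normalized counts were 40615, 45640.2 and 44383 in PHD2-deltaT, against 49306 and 48401.5 in WT. Summed over the sterol branch they were 56348.5, 60236 and 57502 in PHD2-deltaT, against 61219 and 63524 in WT. Neither set of sums overlapped between groups. Fasn and Srebf2 weigh heavily in them, and Srebf2 itself overlapped. Whole-branch sums without these genes were not taken. Sums over groups of steps that hold neither gene were mixed, some overlapping between groups and some not. Those of the mevalonate and isoprenoid steps (13781 to 14266 against 14988 to 16206) and of lanosterol to cholesterol (16261 to 18014 against 18324 to 19322) did not overlap. Those of squalene synthesis and ring closure, of the elongases and of the desaturases did. The libraries differed in how they ranked: PHD2-deltaT replicate 1 held the lowest value of 13 of the 30 members, and WT replicate 2 the highest of 14. A list of 12 proliferation genes was read beside them, since dividing cells make more lipid. Of these 12 genes, 0 passed the adjusted threshold, where 4.0% of all tested genes did. At an unadjusted p of 0.05, 2 of the 12 lay below WT, against 6.48% of all tested genes, and 0 above (8.53%). The middle estimate of the 12 was -0.08 on the log2 scale, beside -0.01 over all genes. Estimates lay below 0 for 9 of the 12 and above 0 for 3. The 2 under that unadjusted p were Mki67 at -0.49 and Ccnb2 at -0.92, the latter with as few as 8.17 inferred reads. Counts of the 12 genes summed to 28997 to 31046 in PHD2-deltaT and 30731 to 31319 in WT. Mcm2, Mcm5 and Pcna weigh heavily in these sums, with log2 fold changes of 0.00, -0.02 and -0.06, and Mki67 and Ccnb2 weigh little. The part of these 12 genes in the values of the lipid genes was not tested.

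Other genes of lipid handling were taken from a list of 44, of which 37 were tested. The list covered remaining synthesis steps, SREBP processing, sterol uptake, export and storage, fatty acid oxidation and lipid droplets. Hilpda rose and Abca1 fell, 1 gene in each direction, so that 2 of 37 passed where 4.0% of all tested genes did, and the median log2 fold change of the 37 was 0.00. Hilpda, a hypoxia-induced lipid droplet protein that inhibits triglyceride breakdown, read 1008, 810 and 884 normalized counts in PHD2-deltaT, against 430 and 522 in WT. The log2 fold change was 0.92 ± 0.11 (SE, adjusted p = 7.0e-05 by limma-trend), and it was not called without the mean-variance trend (adjusted p = 0.0717, range 2.11e-05 to 0.0717 over the alternatives). Abca1, which exports cholesterol from the cell and is induced by oxysterols, read 231, 276 and 313 in PHD2-deltaT, against 393 and 473 in WT. Its log2 fold change was -0.67 ± 0.14 (SE, adjusted p = 0.00845 by limma-trend). The call ended when WT replicate 2 was left out (adjusted p = 0.175) or the trend was dropped (adjusted p = 0.185), with a range of 0.00224 to 0.185 over the alternatives.

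Of the other genes in that list, the 4 with the smallest p did not pass. Scd1, the sister desaturase of Scd2, read 224, 267 and 268 normalized counts in PHD2-deltaT, against 182 and 190.2 in WT (log2 fold change 0.43, adjusted p = 0.0905 in limma-trend). Its PHD2-deltaT values were all above WT, while those of Scd2 overlapped, and the difference between the pair was not tested. Hacd3, a dehydratase of the elongation cycle in which Elovl6 takes the first step, read 2267, 2448 and 2281 in PHD2-deltaT, against 2693 and 2707 in WT (-0.21, adjusted p = 0.129 in limma-trend). Acsl3, which activates fatty acids for lipid droplets, had a log2 fold change of -0.23 and Fabp5, a fatty acid carrier, of 0.15 (adjusted p = 0.298 and 0.362 in limma-trend).

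**Figure D4:**
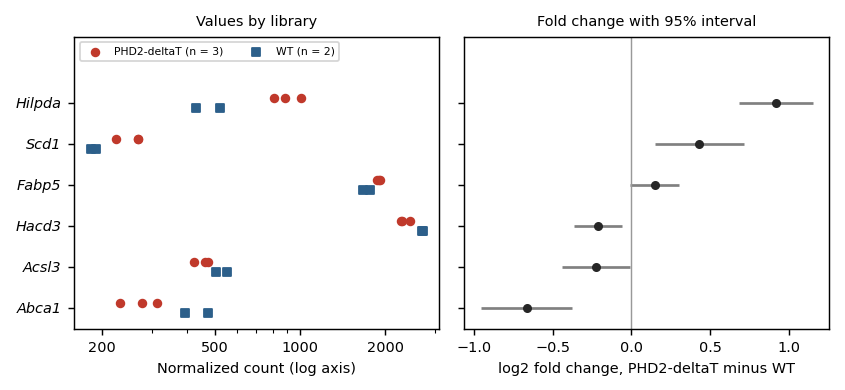
Left, normalized counts (log axis) of 6 other lipid genes in the 3 PHD2-deltaT libraries (circles) and the 2 WT libraries (squares); right, their log2 fold changes, PHD2-deltaT minus WT, with 95% intervals from limma-trend. Hilpda at 0.92 and Abca1 at -0.67 passed the adjusted threshold, and the other 4 did not.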

How the data were processed

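The submitters' processing notes name mm10 as the build, with HTSeq 0.9.1, STAR 2.5.3 and Trimmomatic 0.36 as tools. The authors deposited a normalized signal per gene and library, called normalized counts per the file headers. They also deposited log2 values (mean and fold change) and adjusted p-values headed FDR. Scaling, strand use and the comparison tool are not stated by labels or headers. Each value is a whole multiple of a library's step, and reads were inferred from the gaps between multiples of at most 400 steps, which a single scale explains for 99.1% to 100.0% of them. Such depths are inferences, so no count model was used.

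The filter asked for a value of 10 or more in 2 or more libraries and left 11534 genes. Genotype was the single term of a limma 3.58.1 fit under R 4.3.3 to log2(value + 1), with a mean-variance trend (limma-trend), two-sided, with Benjamini-Hochberg adjustment over all genes. On this log2 scale the change of low genes is understated. The fit was tested on simulated data. Gene lengths and overlaps came from GENCODE M21 (mm10), and similar transcripts (at least 90% identity over at least 300 bases) from minimap2 2.31, found for 8 members. Of the 44 other lipid genes, those past the threshold and the next 4 by p were named. Members and lists were chosen with earlier results of these data known. Promoter stretches with the NF-Y box were chosen after p-values were seen. Replicates are numbered in label order.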

Additional observations from a re-analysis of the deposited data

How the results depend on the processing

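Alternatives were pseudocounts of 0.5 and 10, no filter and a filter at 100, TMM-like and quantile rescaling, eBayes without the trend, robust eBayes, and each library left out. Without the trend 96 genes were called (76 higher, 20 lower) and 0 of the other lipid genes. Robust eBayes called 1 fatty acid member among 480 genes (367 higher, 113 lower). With 1 library left out, genes called ranged from 244 (without WT replicate 2) to 523, fatty acid members called from 0 to 2, other lipid genes called from 1 to 2, and sterol members called remained 0. The branch medians ranged from -0.11 to -0.06 (sterol) and from -0.13 to -0.11 (fatty acid). Signs of members near 0 turned only in these fits, where log2 fold changes ran from -0.240 to 0.025 for Mvk, -0.038 to 0.037 for Mvd, -0.061 to 0.013 for Sqle, -0.088 to 0.035 for Sc5d, -0.12 to 0.11 for Stard4, -0.18 to 0.094 for Ggps1, -0.087 to 0.11 for Scd2, -0.12 to 0.10 for Elovl1 and -0.27 to 0.20 for Fads2. The cause was not tested. Fits with 1 WT library assume that it varies like the others. No paired analysis was possible because the labels give no replicate numbers shared between genotypes. As few as 48.3 inferred reads stood behind a value of Fads2, and the part of depth in the width of its interval was not tested.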
